A study of Homo sapiens with 6 samples.

Results

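The chromatin remodelling genes described here are the protein-coding genes whose symbol starts with SMARC, ARID, INO80, BAZ, or CHD followed by a digit. Of 18864 protein-coding genes with a counted transcript, 43 matched this rule, with 44 transcripts in all because CHD2 was counted on 2 transcripts. Among these, 30 passed the thresholds for an estimate of relative half-life, as did 8733 mRNAs and 10053 transcription units (TUs) in the whole series, and 13 did not. A list of 42 known genes of these families was checked against the counted transcripts and 41 were found. The exception was INO80, the ATPase of the INO80 complex, which is not analysed here. A further pair of genes matched by name only: CHD9NB, a neighbor of CHD9, and INO80B-WBP1, a readthrough of INO80B into the next gene. ARID3A, ARID3B, ARID3C, ARID5A, and ARID5B share a DNA-binding domain with SWI/SNF subunits and are known mainly as DNA-binding proteins.

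Chromatin remodellers use the energy of ATP to slide, evict, or exchange nucleosomes, and so open or close DNA to transcription factors, polymerases, and repair enzymes. SWI/SNF complexes carry SMARCA4 (BRG1) or SMARCA2 (BRM) as their motor and open chromatin, and ISWI complexes carry SMARCA5 (SNF2H) or SMARCA1 (SNF2L) and space nucleosomes evenly. CHD proteins recognize modified histone tails, with CHD3, CHD4, and CHD5 serving as motors of the NuRD co-repressor, and the INO80 family exchanges and slides nucleosomes that hold histone variants. Mutations in ARID1A, SMARCA4, and SMARCB1 are common in human cancers, and CHD7, CHD8, and ARID1B are known from developmental disorders.

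All libraries came from untreated K562 cells, an established line of chronic myelogenous leukemia with erythroid features, grown in RPMI-1640 with 10% FBS from a common source of cells, so replicate spread may be technical. PRO-seq, which maps engaged RNA polymerases on nascent RNA, was done in 2 libraries, and total RNA-seq after rRNA depletion, which measures RNA at steady state, in 4. Levels are given in TPM, a unit that divides counts by length and scales each library to the same total, and relative half-life is the RNA-seq over the PRO-seq level of a TU, given as log2 relative to the median mRNA. This ratio equals a half-life up to a constant only where RNA is at steady state and polymerases move at similar speed. Counts on TUs lay between 5732780 and 9002746 in RNA-seq and were 6993816 and 7245632 in PRO-seq. The RNA-seq libraries formed close pairs, 1 with 3 and 2 with 4. All 8 markers of K562 cells were at 28.4 TPM or more in RNA-seq, and 4 of the 5 counted markers of other cells were at 0.48 TPM or less, whereas EPCAM was at 120 TPM.

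Remodeller genes had a median transcription level close to that of other mRNAs, and 21 of the 30 were not past a 2-fold difference from the median relative half-life. Among all 8733 tested mRNAs, 4589 were not past such a difference. The median PRO-seq level was 48.4 TPM in the 30 tested genes and 47.5 TPM in all tested mRNAs, and the median RNA-seq level was 25.8 and 31.2 TPM. With edgeR's quasi-likelihood test, 11 remodeller genes were above the median mRNA, against a background of 45.4% of tested mRNAs, and 17 were below it, against a background of 44.9%. SMARCD1 and INO80E passed in neither direction. The median log2 half-life was −0.32, with a range of −0.41 to −0.23 when each of the 4 RNA-seq libraries was set against each of the 2 PRO-seq libraries. Whether that median lies below or above the median mRNA depends on the reference, since with all mRNAs of at least 1 count in each assay it became 0.26 over 39 transcripts of 38 genes.

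Large departures from the median mRNA were seen in 9 of the 30 genes. Past a 2-fold difference were 3 genes above the median mRNA (SMARCD2, SMARCA5, and SMARCAD1), with a background of 24.3%, and 6 below it (ARID1A, INO80D, BAZ2A, ARID3B, ARID1B, and CHD6), with a background of 23.2%. Taking both directions, this is 30% of the remodeller genes, with a background of 47.5%. The quartiles of log2 half-life were −0.95 and 0.26 for the remodeller genes and −1.06 and 1.08 for all tested mRNAs. The call past 2-fold of SMARCAD1 was near the threshold and was lost without RNA-seq replicate 2, RNA-seq replicate 4, or PRO-seq replicate 2, each of which left 2 genes past 2-fold above and SMARCAD1 at 1.09, 1.06, and 0.98. With all libraries it rested on an adjusted p of 0.048 from edgeR.

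**Figure D1:**
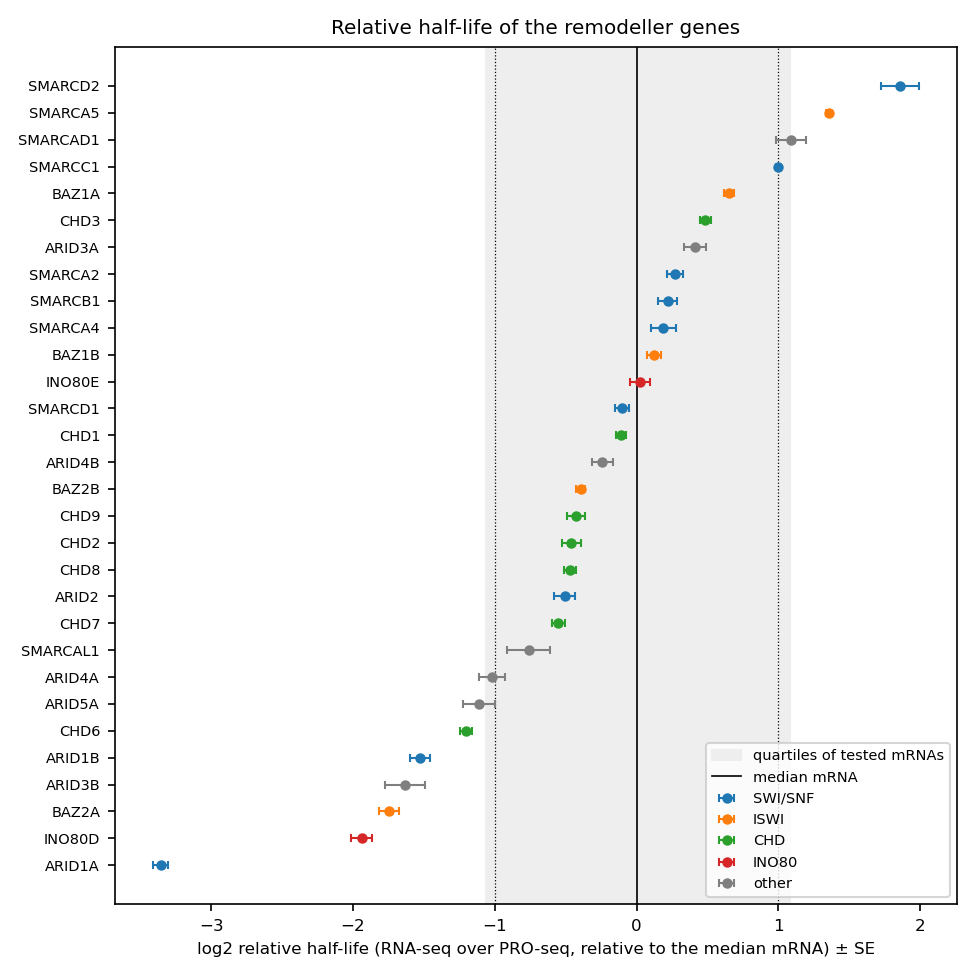
Log2 relative half-life (x axis, RNA-seq over PRO-seq relative to the median mRNA, ± SE from the spread between libraries) of each of the 30 tested remodeller genes, colored by complex. The grey band spans the quartiles of all tested mRNAs (−1.06 to 1.08) and dotted lines mark 2-fold differences, so that ARID1A at −3.36 and SMARCD2 at 1.86 form the ends and most genes fall inside the band.

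Levels ran over a wider range in RNA-seq than in PRO-seq. Over the tested genes, PRO-seq levels ran from ARID3B at 19.7 TPM to ARID1A at 168 TPM, and RNA-seq levels from ARID3B at 4.09 TPM to SMARCD2 at 184 TPM. Spearman's rank correlation between the assays was 0.66 over the 30 genes and 0.55 over the 8733 mRNAs, as a description across genes, which share the same libraries and length normalization. ARID1A had the highest PRO-seq level of the 30 genes and ranked near the bottom in RNA-seq.

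**Figure D2:**
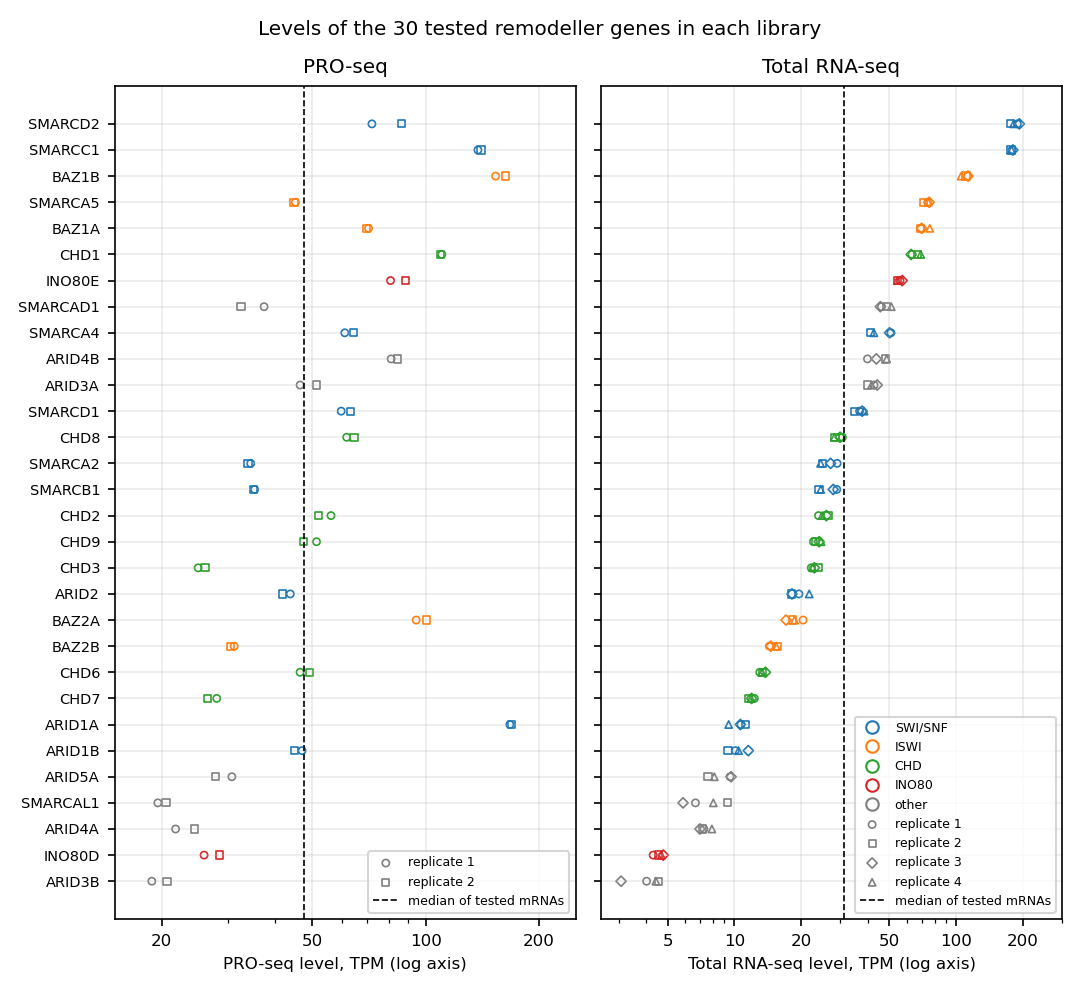
PRO-seq (left) and total RNA-seq (right) levels in TPM on log axes for the 30 tested remodeller genes, ordered by RNA-seq level, with 1 symbol per library and colors for the complexes. Libraries of a gene lie close together, and ARID1A combines the highest PRO-seq level (168 TPM) with an RNA-seq level of 10.5 TPM, below the median of tested mRNAs.

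**Figure D3:**
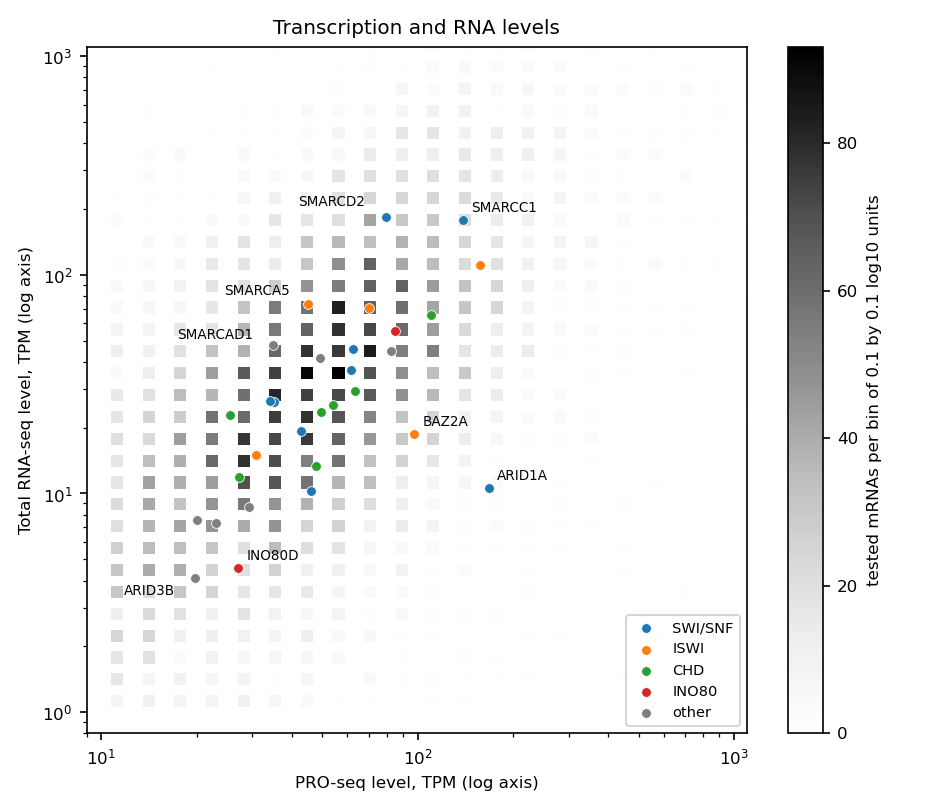
RNA-seq against PRO-seq level (TPM, log axes) for the 30 tested remodeller genes, colored by complex, over the number of tested mRNAs per bin in grey. The rank correlation was 0.66 across the genes. ARID1A lay far below the bulk of the mRNAs, BAZ2A toward its lower side, and SMARCD2 and SMARCA5 toward its upper side.

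SWI/SNF subunits included both the lowest and the highest relative half-life of the 30 tested genes. Of 9 tested subunits, 5 were above the median mRNA and 3 below it, against backgrounds of 45.4% and 44.9%. Their median was 0.19, with quartiles of −0.51 and 0.27, against −1.06 and 1.08 for all tested mRNAs. The motor SMARCA4 was at 61.1 and 64.3 TPM in PRO-seq replicates 1 and 2, and at 50.75, 40.91, 50.04, and 42.51 TPM in RNA-seq replicates 1 to 4. Its paralog SMARCA2 was at 34.4 and 33.8 TPM in PRO-seq, and at 29.0, 25.01, 27.1, and 24.4 TPM in RNA-seq. SMARCA4 was the higher of the motors in every library, and for both genes RNA-seq replicates 1 and 3 were above replicates 2 and 4. The ratio of SMARCA4 to SMARCA2 was 1.74 ± 0.0851 (SD, n = 4) in RNA-seq and 1.84 ± 0.0883 (SD, n = 2) in PRO-seq.

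Both motors had relative half-lives slightly above the median mRNA, with a log2 value of 0.19 (adjusted p = 0.00656, edgeR) for SMARCA4 and 0.27 (adjusted p = 1.06e-04) for SMARCA2. The core subunit SMARCB1 was placed like them, at 0.22 (adjusted p = 0.00805). The call of SMARCA4 was lost without RNA-seq replicate 1 (adjusted p = 0.053, edgeR) or PRO-seq replicate 1 (adjusted p = 0.066), and that of SMARCB1 without RNA-seq replicate 1 (adjusted p = 0.051) or PRO-seq replicate 2 (adjusted p = 0.074). Of the exons of SMARCB1, 52.5% are also covered by TUs on the other strand, and the part of these in its value was not tested.

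SMARCC1 and SMARCD2, scaffold and accessory subunits of SWI/SNF, had the highest RNA levels of all remodeller genes. SMARCD2 (chr17:61909441-61920045, GRCh37, minus strand) was at 72.1 and 86.5 TPM in PRO-seq, and at 189, 176, 193, and 182 TPM in RNA-seq. SMARCC1 (chr3:47626759-47823383, minus strand) was at 138 and 140 TPM in PRO-seq, and at 179, 177, 180, and 178 TPM in RNA-seq. All 4 RNA-seq libraries thus held about equal levels of these subunits, although SMARCC1 was transcribed more than SMARCD2 in both PRO-seq libraries. The log2 half-life of SMARCD2 was 1.86 ± 0.135 (SE), the highest of the 30 genes (adjusted p = 4.27e-20, edgeR). SMARCC1 followed after SMARCA5 and SMARCAD1 at 1.00 ± 0.0151 (SE, adjusted p = 2.28e-22, edgeR), which was not past 2-fold (adjusted p = 0.49).

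SMARCD1, the paralog that can take the place of SMARCD2, was at 61.5 TPM in PRO-seq and at 36.7 TPM in RNA-seq, with a log2 half-life of −0.10 (adjusted p = 0.235, edgeR). SMARCD2 RNA exceeded SMARCD1 RNA by 5.01 ± 0.195 times (SD, n = 4), whereas its PRO-seq level was 1.29 ± 0.116 times as high (SD, n = 2). SMARCD3, the remaining paralog, was low in both assays, at 1.12 TPM in PRO-seq and at 0.55 TPM in RNA-seq, and under the thresholds.

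The subunits with an ARID domain, which set the type of SWI/SNF complex, were all below the median mRNA with the TPM thresholds. ARID1A (chr1:27019727-27107668, plus strand), a subunit of BAF, was at 167 and 169 TPM in PRO-seq, and at 10.7, 11.2, 10.6, and 9.41 TPM in RNA-seq. ARID1B, its paralog, was at 47.0 and 44.9 TPM in PRO-seq, and at 10.1, 9.35, 11.5, and 10.4 TPM in RNA-seq. The paralogs were told apart in PRO-seq, where ARID1A was 3.66 ± 0.143 times as high (SD, n = 2), and overlapped in RNA-seq, where the ratio was 1.02 ± 0.136 (SD, n = 4).

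The log2 half-life of ARID1A was −3.36 ± 0.0533 (SE), the lowest of the 30 genes and 0.0975 times that of the median mRNA (adjusted p = 1.66e-30, edgeR). That of ARID1B was −1.53 (adjusted p = 7.41e-22, edgeR). The counted transcript of ARID1A covers 71.4% of the exons of the canonical transcript, and the part of this in its RNA-seq level was not tested. ARID2, the subunit of PBAF, was at 42.8 TPM in PRO-seq and at 19.3 TPM in RNA-seq, with a log2 half-life of −0.51 (adjusted p = 1.53e-09, edgeR). With at least 1 summed count and no TPM thresholds, ARID2 was above the median mRNA, at 0.15 (adjusted p = 0.00886, edgeR). In RNA-seq ARID2 exceeded ARID1B by 1.88 ± 0.217 times (SD, n = 4), while in PRO-seq it was slightly lower in both libraries.

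In the ISWI group, the motor SMARCA5 stood out for its RNA relative to its transcription. SMARCA5 (chr4:144434855-144478639, plus strand) was at 45.2 and 44.8 TPM in PRO-seq, and at 74.4, 71.4, 75.5, and 74.8 TPM in RNA-seq. Its paralog SMARCA1 was at 1.93 and 2.70 TPM in PRO-seq, and at 2.20, 2.85, 1.96, and 2.85 TPM in RNA-seq. The levels of these motors did not overlap in any library, with a ratio of 30.9 ± 6.395 (SD, n = 4) in RNA-seq and 19.99 ± 4.78 (SD, n = 2) in PRO-seq. SMARCA5 had a log2 half-life of 1.35 ± 0.0191 (SE, adjusted p = 2.46e-20, edgeR), and SMARCA1 was under the PRO-seq threshold.

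The BAZ proteins, which pair with SMARCA5, differed among themselves. BAZ1A, the partner in ACF, was at 70.1 TPM in PRO-seq and at 70.7 TPM in RNA-seq, with a log2 half-life of 0.65 (adjusted p = 2.46e-14, edgeR). BAZ1B, the partner in WICH, was at 158 TPM in PRO-seq and at 111 TPM in RNA-seq, with a log2 half-life of 0.12 (adjusted p = 0.00537, edgeR), a call that was lost without PRO-seq replicate 1 (adjusted p = 0.070) or with 500 bp removed for PRO-seq (adjusted p = 0.059). BAZ2A and BAZ2B fell on the other side of the median.

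BAZ2A (chr12:56989380-57030150, minus strand), the partner in the nucleolar complex NoRC, was at 94.4 and 101 TPM in PRO-seq, and at 20.4, 18.2, 17.1, and 18.7 TPM in RNA-seq. BAZ2B was at 31.1 and 30.4 TPM in PRO-seq, and at 14.4, 15.7, 14.6, and 15.4 TPM in RNA-seq. The PRO-seq levels of BAZ2A were 3.17 ± 0.193 times those of BAZ2B (SD, n = 2), but the RNA-seq levels only 1.24 ± 0.120 times (SD, n = 4). Accordingly, the log2 half-life was −1.75 ± 0.0695 (SE) for BAZ2A (adjusted p = 8.66e-22, edgeR) and −0.40 for BAZ2B (adjusted p = 3.96e-08). Over the 5 tested genes of the ISWI group, 3 were above and 2 below the median mRNA, against backgrounds of 45.4% and 44.9%. The median of the group was 0.12.

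CHD genes were mostly below the median mRNA, 6 of 7 tested against a background of 44.9%, with a median of −0.46. With at least 1 summed count and no TPM thresholds, 5 of these 6 (CHD1, CHD2, CHD7, CHD8, and CHD9) had values above it, from 0.11 to 0.55. The exception was CHD3, a motor of NuRD, which was at 24.96 and 26.03 TPM in PRO-seq, and at 22.2, 23.96, 22.9, and 22.5 TPM in RNA-seq. Its log2 half-life was 0.48 ± 0.0387 (SE, adjusted p = 4.18e-06, edgeR). CHD5, its paralog known mainly from neurons, was at 2.74 TPM in PRO-seq and at 0.19 TPM in RNA-seq and under the thresholds.

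The other motor of NuRD, CHD4, could not be given a relative half-life. It was at 1.97 and 1.73 TPM in PRO-seq, and at 14.9, 14.1, 15.3, and 12.9 TPM in RNA-seq, with 36 and 1247 summed counts. Another counted TU on the same strand covers 97.1% of the length used for PRO-seq and 91.1% of the exons of CHD4. Its levels, which are per full length, are therefore not comparable with those of CHD3. Divided by the 1063 bp and 571 bp that no other TU shares, the same counts come to 64.9 TPM in PRO-seq and at 161 TPM in RNA-seq, as a value chosen after seeing the data.

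The remaining CHD genes formed a narrow group apart from CHD6. CHD6 was at 47.9 TPM in PRO-seq and at 13.3 TPM in RNA-seq, with a log2 half-life of −1.20 (adjusted p = 2.78e-20, edgeR). CHD7, CHD8, CHD2, and CHD9 had log2 half-lives of −0.55, −0.47, −0.46, and −0.43, all with an adjusted p of 1.67e-09 or lower by edgeR. CHD1, which binds methylated histone H3 at active genes, was the most transcribed of them, at 110 TPM in PRO-seq and at 65.6 TPM in RNA-seq. Its log2 half-life of −0.11 passed at an adjusted p of 0.0223 by edgeR and did not without RNA-seq replicate 3 (adjusted p = 0.076) or PRO-seq replicate 1 (adjusted p = 0.142).

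Close relatives in the CHD family kept or lost their order between the assays. The ratio of CHD8 to CHD7 was 2.33 ± 0.164 (SD, n = 2) in PRO-seq and 2.46 ± 0.0591 (SD, n = 4) in RNA-seq, much the same in both. CHD9 and CHD6 overlapped in PRO-seq, with a ratio of 1.03 ± 0.101 (SD, n = 2), whereas in RNA-seq CHD9 was higher in all libraries by 1.77 ± 0.0522 times (SD, n = 4). The tested transcript of CHD2 shares 37.8% of its PRO-seq length with the other counted CHD2 transcript, which was at 7.63 TPM in PRO-seq and under the threshold. Counted per unshared length, an alternative added after seeing the data, its log2 half-life was −0.88, the same side of the median mRNA.

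Of the INO80 complex, only INO80D and INO80E were tested. INO80D (chr2:206858445-206950898, minus strand) was at 25.9 and 28.4 TPM in PRO-seq, and at 4.30, 4.54, 4.77, and 4.68 TPM in RNA-seq. INO80E was at 80.8 and 88.5 TPM in PRO-seq, and at 55.8, 54.3, 57.1, and 54.2 TPM in RNA-seq. INO80E was thus the higher of the subunits in all libraries, by 3.12 ± 0.00124 times in PRO-seq (SD, n = 2) and by 12.1 ± 0.596 times in RNA-seq (SD, n = 4). The PRO-seq ratio rests on 398 summed counts of INO80E and 1296 of INO80D, so this SD from 2 libraries does not show its precision. The log2 half-life of INO80D was −1.94 ± 0.0741 (SE, adjusted p = 4.27e-21, edgeR), and that of INO80E was 0.02 (adjusted p = 0.805).

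The genes outside these complexes lay on both sides of the median mRNA as well. SMARCAD1 (chr4:95128762-95212441, plus strand), an ATPase that helps to keep heterochromatin and to process DNA ends, was at 37.3 and 32.4 TPM in PRO-seq, and at 46.0, 48.4, 45.5, and 50.9 TPM in RNA-seq, with a log2 half-life of 1.09 ± 0.108 (SE). SMARCAL1, which remodels stalled replication forks, was at 20.01 TPM in PRO-seq and at 7.60 TPM in RNA-seq, with a log2 half-life of −0.76 (adjusted p = 3.42e-07, edgeR). With at least 1 summed count and no TPM thresholds, SMARCAL1 was at −0.10 and no longer passed (adjusted p = 0.424).

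ARID3B (chr15:74833561-74890472, plus strand) was at 18.8 and 20.6 TPM in PRO-seq, and at 4.01, 4.55, 3.08, and 4.42 TPM in RNA-seq, with RNA-seq replicate 3 the lowest. Its log2 half-life was −1.63 ± 0.144 (SE, adjusted p = 8.90e-14, edgeR). ARID3A, its paralog, was at 49.0 TPM in PRO-seq and at 41.8 TPM in RNA-seq and lay above the median mRNA, at 0.41 (adjusted p = 2.64e-07, edgeR). ARID4A and ARID4B, paralogs that act with the SIN3 histone deacetylase complex, had log2 half-lives of −1.02 (adjusted p = 2.17e-12, edgeR) and −0.24 (adjusted p = 8.66e-05). ARID5A was at −1.11 (adjusted p = 2.82e-08, edgeR). The ratio of ARID4B to ARID4A RNA was 6.14 ± 0.510 (SD, n = 4), and that of their PRO-seq levels was 3.59 ± 0.197 (SD, n = 2).

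Sequence elements of the 3′ UTR known to be bound by proteins that act on RNA stability were counted in the annotated 3′ UTRs of the tested transcripts, taken from GENCODE on GRCh37. The motifs, searched on the transcript strand only, were the AU-rich pentamer ATTTA, the AU-rich nonamer TTATTTATT, which contains the pentamer, and the Pumilio element TGTANATA. The nonamer was found once each in INO80D, CHD6, CHD7, and ARID2, or 13.3% of the 30 transcripts, and in 8.72% of 8135 mRNAs with a 3′ UTR. Per kb of 3′ UTR there were 0.0599 nonamers in the 30 transcripts and 0.0648 in the mRNAs. The sites of INO80D, CHD6, and ARID2 are shown as examples of the nonamer and the bases around it, with the nonamer in capitals and 10 bases on each side.
INO80D at chr2:206862035-206862063: agttctgctgTTATTTATTaacttaagag
CHD6 at chr20:40031727-40031755: tcattttgcaTTATTTATTtatgatgctt
ARID2 at chr12:46299423-46299451: atattttcacTTATTTATTatcataaaaa
These lie on the minus, minus, and plus strand, and are printed 5′ to 3′ as DNA on the transcript strand. The median log2 half-life was −0.88 for the 4 genes with the nonamer and −0.11 for the 26 without it, and −0.59 and 0.07 for the mRNAs with and without it.

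The pentamer was present in 24 of the 30 transcripts (80%, and 71.3% of the mRNAs), at 2.79 sites per kb of 3′ UTR, compared with 2.25 in all mRNAs. The median log2 half-life was −0.41 for the 24 genes with the pentamer and 0.06 for the 6 without it. For the mRNAs with and without it, the medians were −0.10 and 0.30. The Pumilio element was present in 12 (40%, and 28.4% of the mRNAs), at 0.37 sites per kb compared with 0.23. The transcripts of the remodeller genes had longer 3′ UTRs than the mRNAs, with a median of 1821.5 against 1241 bases. ARID1A, with the lowest relative half-life, had 1 pentamer and neither of the other elements in a 3′ UTR of 421 bases. This is the 3′ UTR of its counted transcript, which covers 71.4% of the exons of the canonical transcript. Elements of other ARID1A transcripts were not counted.

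Pumilio elements occurred on both sides of the median mRNA. Of the 12 genes with the element, ARID3A, CHD3, SMARCA5, and SMARCAD1 passed above it, and of all 30 tested genes 36.7% did. The first element of each 3′ UTR is shown for a pair of genes below the median and a pair above it, with the element in capitals.
INO80D at chr2:206861606-206861633: gcatatttctTGTACATAtgcatgcaaa
ARID2 at chr12:46299463-46299490: gaatagatctTGTAAATAtttgtgaata
SMARCAD1 at chr4:95211924-95211951: gtttttattaTGTAAATAtcattataaa
SMARCA5 at chr4:144477777-144477804: attttgtataTGTACATAgctgttacca
INO80D held 6 such elements, ARID2 held 5, SMARCA5 held 2, and SMARCAD1 held 1. The median log2 half-life was −0.41 for the 12 genes with the element and −0.17 for the 18 without it. For the mRNAs with and without it, the medians were −0.24 and 0.12.

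Remodeller genes were long compared with other mRNAs. The median span was 82784 bp against 29515 bp for all tested mRNAs, the median summed exon length was 6234.5 against 3064 bases, and the median coding length was 4510.5 against 1248 bases. Their transcripts had a median of 24 exons against 9. Within the group, genes with a longer summed exon length tended to have lower values. The rank correlation between summed exon length and log2 half-life was −0.37 over the 30 genes and −0.33 over the mRNAs. For 3′ UTR length, the rank correlation was −0.05 over the genes and −0.25 over the mRNAs. These are descriptions across genes, and exon length also enters the RNA-seq level.

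Of the 13 genes under the thresholds, 7 shared 50% or more of their PRO-seq length with another counted TU on the same strand: CHD1L, CHD4, INO80B, INO80B-WBP1, INO80C, SMARCC2, and SMARCE1. In all mRNAs, those fully covered by TUs on the same strand had a PRO-seq count in 6.37% of 565 cases, those covered on the other strand in 77.7% of 822, and those with no overlap in 90.2% of 10901. A count of 0 or close to it in a covered gene therefore does not show that the gene was not transcribed. None of the 30 tested genes shared 50% or more of its PRO-seq length in this way.

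SMARCC2, the paralog of SMARCC1, had RNA-seq counts without any PRO-seq count. It had 1774 summed counts in RNA-seq, or 24.7, 24.3, 28.3, and 26.4 TPM in replicates 1 to 4, and 0 counts in both PRO-seq libraries, and 100% of its PRO-seq length was covered. Its RNA was lower than that of SMARCC1 in each library, by 6.91 ± 0.440 times (SD, n = 4). CHD1L, an ATPase activated by poly(ADP-ribose), had 1 count in PRO-seq and 201 in RNA-seq, with 99.9% of the PRO-seq length covered. INO80C and INO80B had 70 and 13 counts in RNA-seq and 0 in PRO-seq, with 100% and 99.9% covered.

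SMARCE1, a SWI/SNF subunit with an HMG domain, showed the opposite imbalance. It was at 51.2 and 51.1 TPM in PRO-seq, with 605 counts, and at 0.89, 0.76, 0.86, and 0.92 TPM in RNA-seq, with 67 counts. Another TU covered 89.6% of its PRO-seq length and 59.4% of its exons. Reads of SMARCE1 may also be shared with its processed pseudogenes, of which SMARCE1P5 held 92 RNA-seq counts and 0 PRO-seq counts, so its RNA-seq level is uncertain. INO80B-WBP1 had 72 counts in PRO-seq and 0 in RNA-seq, and all of its exons were covered by other TUs.

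**Figure D4:**
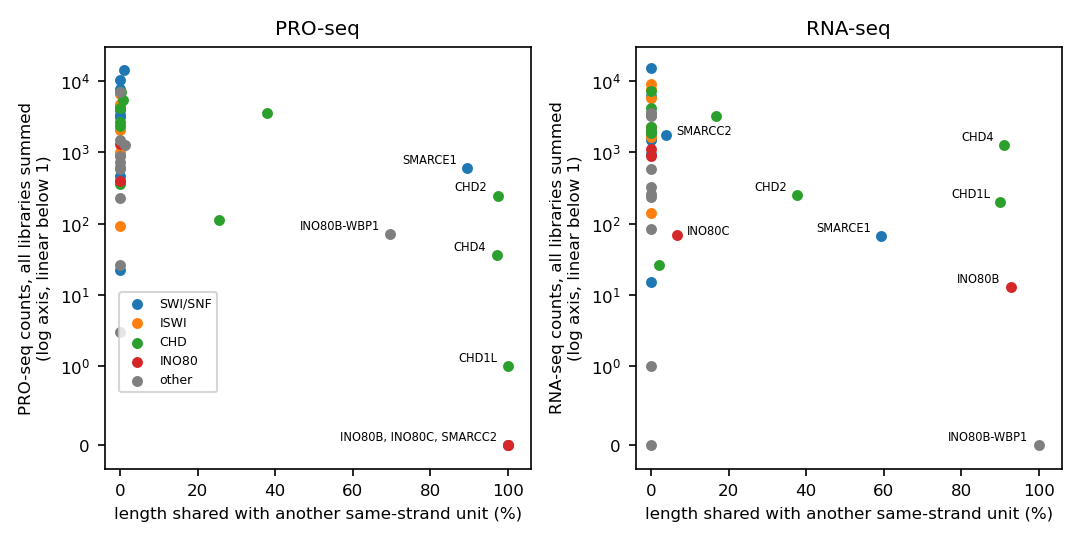
Summed counts (y axis, log scale that is linear below 1) against the percent of a TU's length shared with another counted TU on the same strand, for the 44 remodeller transcripts in PRO-seq (left) and RNA-seq (right), colored by complex, with those sharing 50% or more in PRO-seq labelled. SMARCC2 had 0 PRO-seq counts at 100% shared and 1774 RNA-seq counts at 3.75% shared.

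The other 6 genes under the thresholds were low without such cover. SMARCA1, SMARCD3, and CHD5 are described above, and ARID5B was at 6.17 TPM in PRO-seq and at 0.82 TPM in RNA-seq. ARID3C had 3 PRO-seq counts and 1 RNA-seq count, and CHD9NB had 26 and 0.

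Other subunits of the same complexes, with further ATPases of the SNF2 type, were examined as a list of 63 genes, of which 60 were counted and 52 tested. BICRAL, HELLS, and VPS72 are not analysed here. Of the 52, 23 were above and 20 below the median mRNA, against backgrounds of 45.4% and 44.9%, with 13 and 7 past 2-fold, against 24.3% and 23.2%, and a median log2 half-life of −0.03; MBD3, MTA1, and RAD54B were the 3 tested partners that shared 50% or more of their PRO-seq length. The 3 highest were ZNHIT1, a subunit of SRCAP, at 3.64 ± 0.0627 (SE), the histone deacetylase HDAC2 at 3.59 ± 0.102, and the actin-like ACTL6A at 3.46 ± 0.0646. The 3 lowest were the NuRD subunit GATAD2B at −3.03 ± 0.127, the ATPase EP400 at −2.73 ± 0.0636, and the bromodomain protein BRD9 at −2.40 ± 0.0717. For BRD9, 29.6% of the exons were shared with other TUs on the same strand. How much of the canonical transcript the counted transcript covers was not computed for partner subunits. The part of this in values such as those of HDAC2 and BRD9 was not tested.

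Subunits of a single complex included relative half-lives far apart, as did mRNAs at large. The quartiles of log2 half-life were −0.51 and 0.27 for the tested SWI/SNF genes of the rule. They were −0.83 and 0.26 for the SWI/SNF partners, and −1.06 and 1.08 for all tested mRNAs. In SWI/SNF, ARID1A at −3.36 and BRD9 at −2.40 lay far below SMARCD2 at 1.86 and ACTL6A at 3.46. ARID1A was counted on a part of its canonical transcript, and this cover is not known for BRD9, ACTL6A, and the other partners. In NuRD, 6 of 11 tested partners were above and 4 below the median mRNA. The background is 45.4% and 44.9% here and in the counts that follow. The NuRD median was 0.56, which is the value of MBD3. Of those above, MBD3 and MTA1 share 74.0% and 58.7% of their PRO-seq length with other TUs on the same strand. They share 13.5% and 9.07% of their exons, and the part of this in their values was not tested. Among the partners of INO80, SRCAP, and TIP60, 10 of 15 were above and 2 below, with a median of 0.80, and the helicases RUVBL1 and RUVBL2 were at 2.85 and 3.44. The 4 tested partners of ISWI had 1 above and 3 below, with a median of −0.62.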

How the data were processed

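The authors deposited, for each library, raw counts per transcript made with HTSeq after Cutadapt trimming and HISAT2 alignment to GRCh38; tool versions and strandedness were not given in the sources used here. For PRO-seq, reads near the ends of a TU were left out, taken here as 500 bp at each end. Records that name no TU (66.5% to 68.6% in RNA-seq, 86.5% and 88.6% in PRO-seq) were left out. Transcripts were joined by identifier to GENCODE on GRCh37 (88.1% of 42371 matched), which supplied lengths, symbols, and coordinates.

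TPM was computed from summed counts, by exon length for RNA-seq and by span minus 1000 bp for PRO-seq. TUs that exceeded 10 TPM (PRO-seq) and 1 TPM (RNA-seq) were fitted together with edgeR (version 4.0.16, R version 4.3.3), using its quasi-likelihood test with TMM normalization and length offsets, centered on the median mRNA, with Benjamini-Hochberg adjustment over all tested TUs at 0.05. Differences past 2-fold were tested with glmTreat. DESeq2 (version 1.42.0) was an alternative. SEs combine the spread of log2 TPM between libraries of both assays. Overlaps between TUs were computed among matched transcripts. The fit was tested on simulated counts for the RNA-seq and PRO-seq comparison with 10053 TUs, where it called 93.5% of 200 TUs with a log2 difference of 1, and 7 others falsely. The simulated libraries were independent, with a fixed spread, all other TUs at the reference, and no TPM thresholds. The real RNA-seq libraries form pairs and most mRNAs differ from the reference, so these rates need not hold for the real data. Other steps used Python 3.11.15.

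The genes, lists, and tests were chosen with earlier results of these data known. Every remodeller gene is named, with values in every library for the ATPases SMARCA2, SMARCA4, SMARCA1, SMARCA5, CHD3, and CHD4 and for the 4 highest and 4 lowest relative half-lives, and the 3 highest and lowest partner subunits are named. Values per library of other genes, the subunits RUVBL1 and RUVBL2, and sequence elements were chosen after their values were seen. The libraries share a source of cells, so p-values measure only the spread between these libraries.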

Additional observations from a re-analysis of the deposited data

Results flagged for a closer look

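In RNA-seq, BAZ1A stood apart in replicate 4, at 76.0 TPM against 68.9 to 69.8 TPM in the other replicates. It was the only gene of the 30 tested with a library this far from the rest by Dixon's criterion, which chance alone meets in about 1 in 20 groups.

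Noncoding genes and pseudogenes named after remodeller genes were not among the genes compared above, and 6 of them held more PRO-seq counts than the 3 that a count of 0 allows. CHD1-DT, a divergent transcript at CHD1, held 652 summed PRO-seq counts and 16 RNA-seq counts, with a log2 half-life of −2.32 relative to the median mRNA (adjusted p = 7.59e-09, edgeR). SMARCAD1-DT held 54 and 2, and SMARCAL1-AS1 held 19 and 0. BAZ1A-AS1 held 20 PRO-seq and 80 RNA-seq counts, which per length were 34.3 and 2.78 TPM, with a log2 half-life of −2.98 (adjusted p = 3.32e-06, edgeR). Its PRO-seq counts were 16 and 4 in replicates 1 and 2, so this value rests mainly on replicate 1. INO80D-AS1 held 6 and 72, or 11.97 and 7.04 TPM, with a log2 half-life of −0.13 (adjusted p = 0.851, edgeR). The pseudogene SMARCE1P6 held 4 and 8, and reads of such copies are uncertain. Antisense RNA at these genes was told apart from the gene itself only as far as the counting used strand.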

How the results depend on the processing

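With at least 1 summed count in each assay and no TPM thresholds, the reference moved, and every tested remodeller gene was shifted by 0.66 on the log2 scale, in the same order. Over 39 transcripts of 38 genes in place of 30, 24 transcripts were then above and 11 below the median mRNA, 9 were above past 2-fold, the median was 0.26, 40 partner subunits were above and 13 below, and the rank correlation between the assays was 0.75. ARID2 (0.15), ARID4B (0.42), BAZ2B (0.26), CHD1 (0.55), CHD2 (0.20), CHD7 (0.11), CHD8 (0.19), CHD9 (0.23), and SMARCD1 (0.56) then changed sign. Relative to the median of all tested TUs, the median of the genes was −0.075, 12 partners were below, and ARID4B (0.0021), CHD1 (0.13), and SMARCD1 (0.14) changed sign. INO80E changed sign at thresholds of 20 and 2 TPM (−0.015) and without PRO-seq replicate 1 (−0.026, and up to 0.074 without another library), on neither occasion past the test. It passed above the median mRNA with at least 1 summed count (0.68) and relative to all tested TUs (0.27). The rank correlation was 0.62 at 20 and 2 TPM, and 0.78 over 35 genes without TPM thresholds and without those sharing 50% or more of their PRO-seq length, a choice made after seeing the data. With 500 bp removed for PRO-seq, the median PRO-seq level of the genes was 58.2 TPM. The causes were not tested beyond the change in reference.

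Leaving out each library in turn gave 9 to 11 genes above and 16 to 17 below the median mRNA, 2 to 3 above and 6 below past 2-fold, a median of −0.34 to −0.28, 22 to 23 partners above and 18 to 20 below, and a rank correlation of 0.65 to 0.67. Deviations of replicates 1 and 2 had a correlation between the assays of −0.0067 over 9962 TUs. This cannot show whether replicate numbers pair the assays, since the libraries share a source of cells and may differ only technically. With the replicate number as a block, 11 genes were above and 16 below, 2 and 6 past 2-fold, with 23 and 20 partners above and below and a median of −0.34. Of 449 tested values for single genes over 15 alternatives, 421 kept their direction and side of the threshold, and SMARCAL1 lost its call with at least 1 summed count (−0.10). The call of CHD1 was lost with DESeq2, with RNA-seq replicates 1 and 3, and 2 and 4, added up, and with the block, and that of SMARCAD1 past 2-fold with these, with 500 bp removed, at 20 and 2 TPM, and per unshared length. With a pseudocount of 1 TPM, INO80D moved to −1.73.

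Depth limits the genes with few counts, such as ARID3C and SMARCD3, which the thresholds leave out. Lengths are those of GRCh37 transcripts and can differ from those counted on.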
